A study of Homo sapiens with 6 samples.

Results

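The 9 genes described here encode the enzymes that make serine and pass its carbon through folate: PHGDH, PSAT1, PSPH, SHMT1, SHMT2, MTHFD1, MTHFD1L, MTHFD2 and TYMS. They were chosen by name from a table of 60831 genes, and each name matched 1 row. RNA was sequenced from PATU8988, an established human pancreatic cancer line. The study compared cells with a lentiviral hairpin against CLIC1 (labelled shCLIC1, 3 libraries) with the same line carrying the control hairpin (labelled shNC, 3 libraries). CLIC1 encodes a chloride intracellular channel protein, and the title of the series links it to matrix stiffness and to glycolysis in tumour cells. Both groups carried a vector with EGFP and puromycin resistance and were kept in 5 μg/mL puromycin for 2 weeks, so both are selected stable lines grown in serum-containing medium. The sources used here give neither the hairpin sequences nor the origin of the 3 samples of a group as separate infections or cultures. The p-values therefore measure spread among these samples only, and part of it may be technical. The labels do not separate hairpins within a group, so lower CLIC1 and other effects of a hairpin cannot be told apart.

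Levels are given as TPM, a unit in which reads are divided by gene length and every library is scaled to the same total, so genes can be compared with each other within a library. How deeply the libraries were sequenced is unknown, because TPM does not record it. The target was lower in every knockdown library: CLIC1 had 219, 209.6 and 204 TPM in shCLIC1 and 313, 311 and 297 TPM in shNC, a log2 fold change of −0.54 (SE 0.0407, limma adjusted p = 0.00345). That call did not pass in limma without the mean-variance trend (adjusted p = 0.0730), and it passed in 16 of 17 alternative settings. The knockdown was partial, with a mean CLIC1 level of 211 TPM in shCLIC1 and 307 TPM in shNC. The epithelial identity of the line was visible in both groups, since 7 of 7 epithelial and ductal markers reached 1 TPM. Their summed level was 11208 to 11685 TPM in shCLIC1 and 9437 to 9703 TPM in shNC, and KRT8, KRT18, KRT19 and EPCAM, 4 of the 7, were called higher in shCLIC1. CDH1 and MUC1 had negative log2 fold changes, −0.16 and −0.22, and did not pass. The part of these marker differences in the enzyme results was not tested. KRT7 and MUC1 were low, at 1.07 to 3.13 TPM in shCLIC1 and 1.23 to 2.10 TPM in shNC. Of 12 markers of leukocytes, fibroblasts, endothelium, acinar and endocrine cells, 4 reached 1 TPM in any library: PRSS1, COL1A1, PDGFRB and CD68. PTPRC, CD3E, COL1A2, CPA1 and GCG were listed at 0 in all 6. The 12 summed to 7.68 to 8.42 TPM in shCLIC1 and 5.97 to 8.04 TPM in shNC. The acinar marker PRSS1 had 4.04 to 4.99 TPM in shCLIC1 and 2.84 to 3.57 TPM in shNC, above KRT7 and MUC1 in each group. Its groups lay apart, and it did not pass (log2 fold change 0.42, limma adjusted p = 0.165). In bulk RNA, fewer cells of a kind and less RNA per cell cannot be told apart.

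Serine is made from the glycolytic intermediate 3-phosphoglycerate by a short cytosolic chain. Serine hydroxymethyltransferase then moves a carbon from serine to tetrahydrofolate and releases glycine, and the folate-bound carbon is used to build purines, thymidylate and methionine. The folate steps exist in parallel in the cytosol and in mitochondria. In proliferating cells the mitochondrial arm usually runs from serine towards formate, which leaves the organelle and is taken up again by the cytosolic arm. MTHFD2 is abundant in embryos and many tumours and scarce in most adult tissues, and several genes of the pathway are known targets of the stress-responsive factor ATF4.

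Knockdown cells had less of MTHFD2 and, by a smaller margin, of TYMS. MTHFD2, the mitochondrial methylenetetrahydrofolate dehydrogenase and cyclohydrolase, stood at 71.5% of its control mean. TYMS, which makes thymidylate and is the most abundant of the 9 RNAs, stood at 86.5%. The 3 serine synthesis genes had lower means in shCLIC1, between 82.4% and 88.7% of control, without passing the test. SHMT1, SHMT2, MTHFD1 and MTHFD1L lay between 93.7% and 97.8% of control and did not pass either. Thus 2 of 9 genes were called lower and 0 higher in limma on log2(TPM + 1), at a Benjamini-Hochberg adjusted p under 0.05 over 14135 tested genes, where 1.74% of all tested genes were called, 0.778% lower and 0.962% higher. At an unadjusted p under 0.05, 5 of the 9 were lower, where 15.6% of all tested genes passed in either direction and 7.76% as lower. All 9 log2 fold changes were negative, with a median of −0.17, against 51.3% negative and a median of 0.00 over all tested genes. The groups did not overlap in 4 of the 9, each lower in shCLIC1, where 22.3% of all tested genes had groups that did not overlap and 11.2% were lower without overlap. In the alternative settings, MTHFD2 was called in 14 of 17 and TYMS in 8 of 17.

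**Figure D1:**
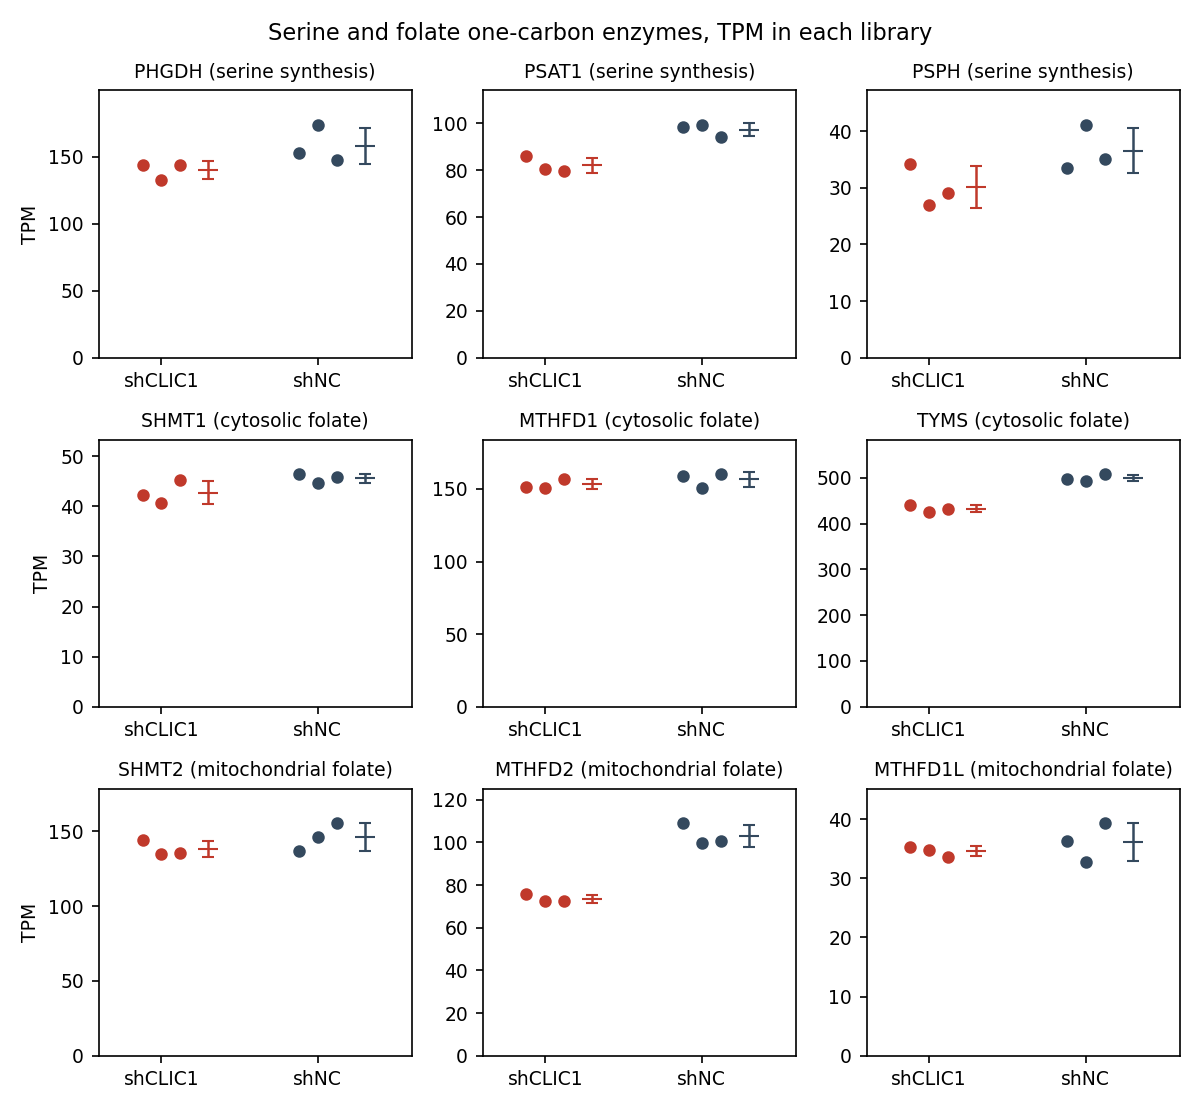
TPM of each of the 9 enzymes (vertical axes, each starting at 0) in the 3 shCLIC1 (red, left) and 3 shNC (blue, right) libraries. Dots are libraries, and the bars give the mean and SD of 3. MTHFD2 and TYMS are the genes that passed the test, and their groups lie apart, as do those of PHGDH and PSAT1.

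The levels spanned more than an order of magnitude. In shCLIC1 cells TYMS was highest at 433 ± 7.97 TPM (SD, n = 3), followed by MTHFD1, PHGDH, SHMT2, PSAT1, MTHFD2, SHMT1, MTHFD1L and PSPH at 30.1 ± 3.72 TPM. In shNC cells TYMS was again highest at 500.2 ± 6.98 TPM, followed by PHGDH, MTHFD1, SHMT2, MTHFD2, PSAT1, SHMT1, PSPH and MTHFD1L at 36.1 ± 3.23 TPM. Neighbours whose libraries overlapped were PHGDH with SHMT2 and MTHFD1L with PSPH in shCLIC1. In shNC they were PHGDH with MTHFD1, MTHFD1 with SHMT2, and PSPH with MTHFD1L. MTHFD2 and PSAT1 changed places, with MTHFD2 below PSAT1 in shCLIC1 and above it in shNC, and their libraries did not overlap in either group. The gap in shNC was narrow, from 99.69 TPM in the lowest MTHFD2 library to 99.12 TPM in the highest PSAT1 library. In shCLIC1 the highest MTHFD2 library had 75.82 TPM and the lowest PSAT1 library 79.57 TPM. The coefficient of variation within a group ran from 1.84% for TYMS to 12.4% for PSPH in shCLIC1, and from 1.39% for TYMS to 10.8% for PSPH in shNC.

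PHGDH, PSAT1 and PSPH catalyse the successive steps from 3-phosphoglycerate to serine. PHGDH, phosphoglycerate dehydrogenase and the entry step (chromosome 1, 119648411 to 119744226 in GRCh38, plus strand), had 144, 132 and 144 TPM in shCLIC1 and 153, 173 and 148 TPM in shNC. The groups were apart by a small gap, and shNC replicate 2 was the highest library. Its log2 fold change of −0.17 (SE 0.0685, 95% interval −0.33 to −0.0095) did not pass after adjustment (limma adjusted p = 0.290).

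PSAT1, the aminotransferase of the second step (chromosome 9, 78297143 to 78330093, plus strand), had 85.8, 80.6 and 79.6 TPM in shCLIC1 and 98.6, 99.1 and 94.0 TPM in shNC. Every knockdown library was below every control library. The log2 fold change was −0.24 (SE 0.0484, 95% interval −0.36 to −0.13) with a limma adjusted p of 0.0628, and the gene passed as lower in 2 of 17 alternative settings, a filter at a mean of 5 TPM (adjusted p = 0.0469) and quantile normalization (adjusted p = 0.0378). PSPH, the phosphatase that releases serine (chromosome 7, 56011051 to 56051604, minus strand), had 34.2, 27.0 and 29.1 TPM in shCLIC1 and 33.5, 41.0 and 35.1 TPM in shNC. Its groups overlapped through shCLIC1 replicate 1, and its log2 fold change of −0.27 (SE 0.108, 95% interval −0.53 to −0.019) did not pass (limma adjusted p = 0.282). Summed over the 3 genes, serine synthesis enzymes took 252 ± 11.8 TPM in shCLIC1 and 292 ± 19.4 TPM in shNC (SD, n = 3).

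Among the cytosolic folate genes TYMS alone passed the test. SHMT1, which converts serine and tetrahydrofolate to glycine and methylenetetrahydrofolate (chromosome 17, 18327860 to 18363563, minus strand), had 42.2, 40.8 and 45.4 TPM in shCLIC1 and 46.4, 44.6 and 45.9 TPM in shNC. Its groups overlapped, with a log2 fold change of −0.09 (95% interval −0.23 to 0.04, limma adjusted p = 0.492). MTHFD1, the trifunctional enzyme that links methylene-, methenyl-, formyl- and free tetrahydrofolate in the cytosol (chromosome 14, 64388031 to 64463457, plus strand), had 152, 151 and 157 TPM in shCLIC1 and 159, 151 and 160.05 TPM in shNC. It overlapped fully and had the smallest log2 fold change of the 9 genes, −0.03 (95% interval −0.13 to 0.06, limma adjusted p = 0.761).

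TYMS, thymidylate synthase, transfers the folate-bound carbon to dUMP (chromosome 18, 657604 to 673578, plus strand). It had 441, 425 and 432 TPM in shCLIC1 and 499, 494 and 508 TPM in shNC. The 3 knockdown libraries lay well below the 3 control libraries, with a mean difference of −67.3 TPM. Its log2 fold change was −0.21 (SE 0.0297, 95% interval −0.28 to −0.14, limma adjusted p = 0.0228). The call was lost without shCLIC1 replicate 2, or without any one of the shNC replicates, with adjusted p from 0.0846 to 0.108 and log2 fold changes from −0.22 to −0.20. It was also lost with no level filter (0.0700), without the mean-variance trend (0.170), with median centring (0.131) and with trimmed-mean rescaling (0.0532), at log2 fold changes of −0.21 to −0.19. TYMSOS, a transcript on the opposite strand at the TYMS start, had 12.9, 12.4 and 13.1 TPM in shCLIC1 and 16.1, 14.3 and 15.3 TPM in shNC and did not pass (log2 fold change −0.23, limma adjusted p = 0.185). ENOSF1, which overlaps the other end of TYMS, had 41.3 to 47.5 TPM in shCLIC1 and 45.7 to 50.7 TPM in shNC. The sources used here do not say whether counting used strand, so reads from the stretches that these genes share cannot be told apart. This limit also covers MTHFD1, MTHFD1L, MTHFD2, SHMT1 and SHMT2, which overlap genes on the opposite strand too.

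Of the mitochondrial genes, MTHFD2 passed the test, and SHMT2 and MTHFD1L, the enzymes before and after it, did not. Whether MTHFD2 differed more than these was not tested. SHMT2, the mitochondrial serine hydroxymethyltransferase (chromosome 12, 57229327 to 57234935, plus strand), had 144, 135 and 136 TPM in shCLIC1 and 137, 146 and 155 TPM in shNC. The groups overlapped, with a log2 fold change of −0.08 (95% interval −0.21 to 0.05, limma adjusted p = 0.566). MTHFD1L, which releases formate from formyltetrahydrofolate (chromosome 6, 150865549 to 151101887, plus strand), had 35.3, 34.8 and 33.6 TPM in shCLIC1 and 36.3, 32.8 and 39.3 TPM in shNC. It overlapped as well, with a log2 fold change of −0.06 (95% interval −0.23 to 0.11, limma adjusted p = 0.749), and without shNC replicate 3 the value was 0.0016.

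MTHFD2 (chromosome 2, 74198562 to 74217565, plus strand) had 75.8, 72.3 and 72.8 TPM in shCLIC1 and 109, 99.7 and 100.45 TPM in shNC. The highest knockdown library was far below the lowest control library, and shNC replicate 1 was the highest of the 6. Its log2 fold change of −0.48 (SE 0.0508, 95% interval −0.60 to −0.36, limma adjusted p = 0.0114) was the largest of the 9 in size and ranked 346 from the most negative among the 14135 tested genes. Leaving out shCLIC1 replicate 2 or shNC replicate 3 put the adjusted p at 0.0538 and 0.0526, at log2 fold changes of −0.47 and −0.50, and it was 0.0730 without the mean-variance trend. The table lists 16 pseudogenes named after members of the group, of which 12 were at 0 in every library. The highest was PSPHP1, at 0 in shCLIC1 and 1.67, 1.81 and 0 TPM in shNC. The related mitochondrial enzyme MTHFD2L was much lower, at 11.8 to 12.3 TPM in shCLIC1 and 10.9 to 12.1 TPM in shNC, and did not pass (log2 fold change 0.08, limma adjusted p = 0.675).

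**Figure D2:**
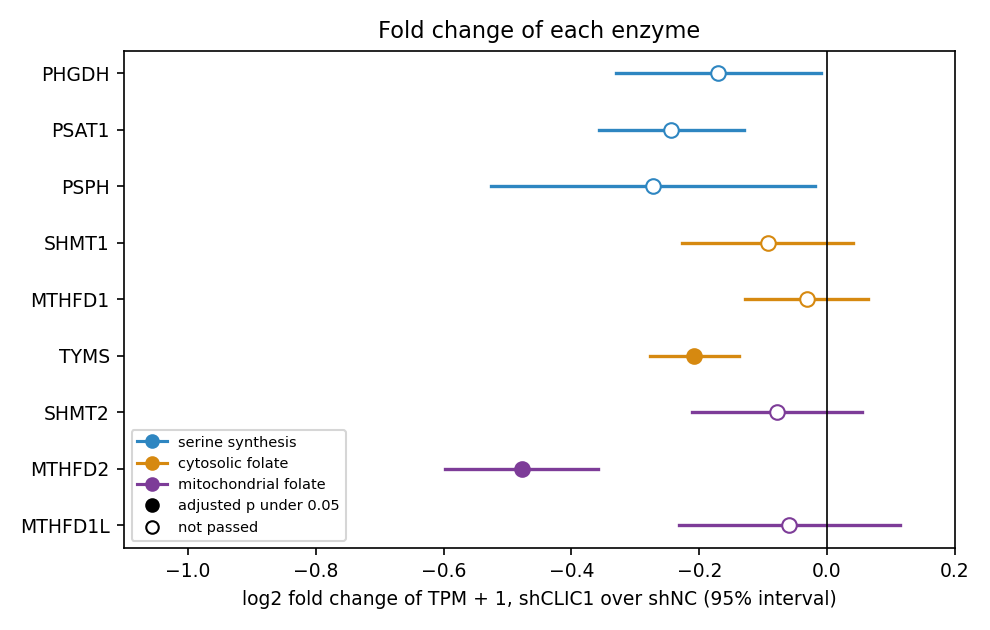
Log2 fold change of TPM + 1, shCLIC1 over shNC (horizontal axis), for each enzyme (rows), with its 95% interval from limma. Filled dots passed an adjusted p of 0.05. MTHFD2 at −0.48 and TYMS at −0.21 are filled, and the other 7 values lie between −0.27 and −0.03.

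The comparison of compartments used ratios within a library, which are untouched by library scaling. MTHFD2 relative to MTHFD1, whose cytosolic protein covers the same dehydrogenase and cyclohydrolase steps, was 0.481 ± 0.0184 in shCLIC1 and 0.658 ± 0.0290 in shNC (ratio of TPM, SD, n = 3). The libraries were at 0.5002, 0.4797 and 0.4634 in shCLIC1 and 0.6852, 0.6616 and 0.6276 in shNC. The groups did not overlap, and the difference in mean log2 ratio was −0.45 (exact permutation test, two-sided, p = 0.1, the smallest that 3 against 3 libraries allow; adjusted over 3 pairs, p = 0.3). SHMT2 relative to SHMT1 was 3.24 ± 0.221 in shCLIC1 and 3.20 ± 0.229 in shNC, and the log2 ratios overlapped, with a difference of 0.02 (exact permutation p = 0.7, adjusted p = 0.8). MTHFD1L relative to MTHFD1 was 0.226 ± 0.0103 in shCLIC1 and 0.231 ± 0.0139 in shNC, with a difference in log2 ratio of −0.03 (exact permutation p = 0.8, adjusted p = 0.8). The signs of the SHMT2 and MTHFD1L differences turned when 1 library was left out, over ranges of −0.04 to 0.07 and −0.07 to 0.02.

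As sums, the 3 mitochondrial enzymes took 246 ± 7.79 TPM in shCLIC1 and 285 ± 8.54 TPM in shNC, and the 3 cytosolic ones, TYMS included, took 629 ± 10.4 TPM in shCLIC1 and 702 ± 12.3 TPM in shNC (SD, n = 3). The mitochondrial share of folate enzyme TPM was 28.7%, 28.2% and 27.6% in shCLIC1 and 28.6%, 28.8% and 29.2% in shNC. These overlapped, and the mean difference was −0.73 percentage points. With TYMS left out the share was 56.9%, 55.8% and 54.5% in shCLIC1 and 57.9%, 58.8% and 58.9% in shNC, which did not overlap, at a mean difference of −2.81 percentage points. The mean log2(TPM + 1) of the mitochondrial genes minus that of the cytosolic ones was −0.99 in shCLIC1 and −0.90 in shNC. The libraries of the groups did not overlap in this value. These sums, shares and means are given as descriptions, with no test. All 9 genes together took 1127 ± 27.8 TPM in shCLIC1 and 1279 ± 7.73 TPM in shNC, or 88.1% of control. MTHFD2 and TYMS, the genes called lower, made up 63.6% of the difference, TYMS alone 44.2%. TYMS also took 500.2 of the 1279 TPM in shNC and stood at 86.5% of control.

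**Figure D3:**
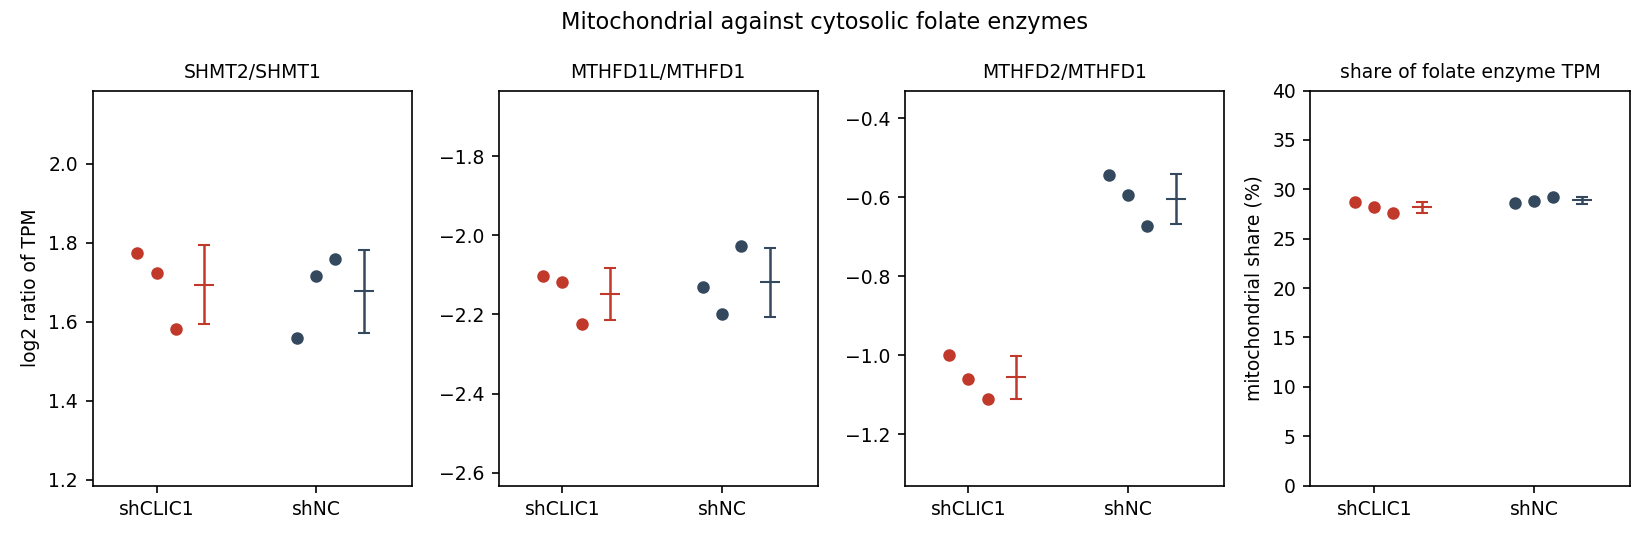
Log2 ratio of TPM of a mitochondrial to a cytosolic enzyme in each library (first 3 panels, each spanning 1 log2 unit), and the mitochondrial share of the TPM of the 6 folate enzymes in percent (last panel, from 0). Dots are libraries, shCLIC1 (red) left of shNC (blue), with mean and SD of 3. The groups lie apart for MTHFD2/MTHFD1, at a difference of −0.45, and overlap in the other panels.

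Of the 9 genes, 7 matched the RefSeq promoter table (GRCh38.p14), with 10 start sites. The 250 bases upstream of a start were searched on both strands for CCAAT, the box bound by NF-Y, for TGATGNAA, the core of the element bound by ATF4 with C/EBP partners, for CACGTG, the E-box bound by MYC, and for TTTCCCGC, an E2F motif. The upstream stretches of MTHFD2, TYMS and PSAT1 are shown because these genes had the smallest adjusted p of the 9. From the 4 stretches of MTHFD1L, whose RNA did not pass, 1 is shown because it holds the ATF4 motif. Capitals mark the matches, none of which overlap each other.
MTHFD2 upstream, chr2:74198365-74198614, plus strand: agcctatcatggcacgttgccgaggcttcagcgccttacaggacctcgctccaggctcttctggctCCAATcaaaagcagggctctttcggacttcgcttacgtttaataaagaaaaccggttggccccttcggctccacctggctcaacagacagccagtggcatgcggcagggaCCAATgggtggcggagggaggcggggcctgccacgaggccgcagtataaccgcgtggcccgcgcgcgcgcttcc
TYMS upstream, chr18:657403-657652, plus strand: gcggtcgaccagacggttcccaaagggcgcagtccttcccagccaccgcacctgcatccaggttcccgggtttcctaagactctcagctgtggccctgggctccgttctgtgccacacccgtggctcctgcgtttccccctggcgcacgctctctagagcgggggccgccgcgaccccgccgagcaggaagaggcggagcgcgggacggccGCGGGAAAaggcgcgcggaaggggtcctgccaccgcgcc
PSAT1 upstream, chr9:78296875-78297124, plus strand: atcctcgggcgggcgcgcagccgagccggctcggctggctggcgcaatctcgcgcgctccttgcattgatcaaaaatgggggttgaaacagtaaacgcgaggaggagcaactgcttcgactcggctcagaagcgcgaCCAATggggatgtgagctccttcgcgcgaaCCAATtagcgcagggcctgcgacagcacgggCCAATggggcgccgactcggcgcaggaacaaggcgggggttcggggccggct
MTHFD1L upstream, chr6:150866236-150866485, plus strand: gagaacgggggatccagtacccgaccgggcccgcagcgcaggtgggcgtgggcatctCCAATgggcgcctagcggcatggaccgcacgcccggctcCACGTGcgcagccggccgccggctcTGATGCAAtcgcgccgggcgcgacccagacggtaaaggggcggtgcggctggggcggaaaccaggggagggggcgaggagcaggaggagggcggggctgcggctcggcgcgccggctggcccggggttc

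The MTHFD2 stretch held CCAAT at 2 places and the PSAT1 stretch at 3, where 32.0% of all 35116 promoters of the table hold it at least once. The TYMS stretch held the E2F motif on the minus strand, about 35 bases before the start, a match found in 1.39% of all promoters. The MTHFD1L stretch shown held the CCAAT box, the E-box and the ATF4 motif, as TGATGCAA. Of the other MTHFD1L start sites, one whose stretch overlaps it held the same motifs, another held the CCAAT box alone, and the one farthest downstream held none. The E-box occurs in 6.34% and the ATF4 motif in 3.14% of all promoters. Among the other matched genes, PHGDH held CCAAT at 1 place, SHMT1 held it at 2, and MTHFD1 held 1 CCAAT box and 1 E-box. A match is a description of these letters, and binding was not measured.

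The bases GTGCTGA were already known to be frequent in the 3′ untranslated regions (3′ UTRs) of genes lower in these knockdown libraries, so the 9 genes were read for them. In GENCODE release 29, 3′ UTRs of 11616 tested genes could be searched. GTGCTGA was present in 14.3% of all searched genes. The share was 50.5% of 97 genes called lower, 3.88% of 129 called higher and 14.2% of those not called. These counts come from the genes on which the bases were found and are not independent evidence. A gene was taken to carry the bases if any of its searched transcripts held them. Of the 9 enzymes, PSAT1 carried GTGCTGA, at base 383 of a 1007-base 3′ UTR. MTHFD2, TYMS and MTHFD1 carried only the shorter TGCTGA, which is part of the longer run. TGCTGA was present in 44.3% of all searched genes, 72.2% of those called lower and 20.2% of those called higher, and these shares are no more independent. PHGDH, PSPH, SHMT1, SHMT2 and MTHFD1L carried neither. Stretches of PSAT1, MTHFD2 and TYMS are shown because these genes had the smallest adjusted p of the 9. MTHFD1, which had the smallest log2 fold change of the 9 in size, held TGCTGA at 2 places and is not shown. The stretches read 5′ to 3′ along the transcript, with the matching bases in capitals.
PSAT1 3′ UTR, chromosome 9: gggccctctagGTGCTGAatctacacatct
MTHFD2 3′ UTR, chromosome 2: ctcctgacctcTGCTGAttccccccacctc
TYMS 3′ UTR, chromosome 18: gtatctgacaaTGCTGAggttatgaacaaa

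MTHFD2, the gene with the largest log2 fold change of the 9 in size, thus lacked GTGCTGA in the 3 searched transcripts, and its TGCTGA lay at base 2601 of the longest, 3323-base 3′ UTR. The part of these bases in any difference was not tested.

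The other genes of the pathway did not pass the limma test in any list examined, and the number with an unadjusted p under 0.05 is given for each. For comparison, 15.6% of all tested genes had an unadjusted p under 0.05 in either direction. These lists describe the surroundings of the 9 enzymes and were likewise chosen with earlier results known. In folate transport and polyglutamation, 6 of 8 genes were tested and 0 were called (2 unadjusted), with a median log2 fold change of −0.04. SLC46A1, the proton-coupled folate transporter, had 27.7 to 28.8 TPM in shCLIC1 and 29.8 to 35.7 TPM in shNC and did not pass (log2 fold change −0.21, limma adjusted p = 0.241). SLC25A32, the carrier of folate into mitochondria, had 16.2 to 18.3 TPM in shCLIC1 and 15.5 to 17.4 TPM in shNC, and its groups overlapped.

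Among other folate-interconverting enzymes, 5 of 7 were tested, 0 were called (1 unadjusted) and the median was 0.08. ALDH1L1, which oxidises cytosolic formyltetrahydrofolate to carbon dioxide, had a positive value where the 9 enzymes had negative ones, with 66.0, 63.0 and 53.3 TPM in shCLIC1 and 50.3, 50.6 and 50.6 TPM in shNC. All knockdown libraries were above the controls, with a log2 fold change of 0.26 (SE 0.0805, limma adjusted p = 0.185), and the gene passed as higher in 1 of 17 alternative settings, without shCLIC1 replicate 3 (0.35, adjusted p = 0.0357). Its mitochondrial counterpart ALDH1L2 was at or below 0.77 TPM in every library.

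In serine and glycine transport 6 of 6 genes were tested, 0 were called (1 unadjusted) and the median was −0.01. SFXN2, a mitochondrial sideroflexin, had the smallest p of that list, at 13.4, 8.41 and 8.98 TPM in shCLIC1 and 13.8, 15.4 and 12.1 TPM in shNC, with overlapping groups (log2 fold change −0.41, limma adjusted p = 0.316). SFXN1, the main mitochondrial serine carrier, had 75.8 to 92.7 TPM in shCLIC1 and 70.8 to 99.95 TPM in shNC. Of the 6 listed genes of glycine cleavage and serine breakdown, 4 were tested and 0 were called (0 unadjusted), with a median of 0.09. DLD, the dehydrogenase shared by the glycine cleavage system and the pyruvate dehydrogenase complex, had the smallest p and did not pass (log2 fold change 0.11, limma adjusted p = 0.430).

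The lists for purine, methionine and thymidine metabolism, from which TYMS itself was left out, had no called gene. De novo purine synthesis, in which GART and ATIC use formyltetrahydrofolate, had 0 of 6 genes called (1 unadjusted) and a median of −0.03. PAICS had 197, 194 and 181 TPM in shCLIC1 and 218, 196 and 214 TPM in shNC (log2 fold change −0.13, limma adjusted p = 0.289). The methionine cycle and transsulfuration had 6 of 10 genes tested, 0 called (0 unadjusted) and a median of −0.08, with MAT2B, the regulatory subunit of methionine adenosyltransferase, at −0.10 (limma adjusted p = 0.541). Thymidine nucleotide supply had 0 of 6 called (3 unadjusted) and a median of −0.12. In that list 3 genes, DUT, RRM1 and DTYMK, were lower in shCLIC1 without overlap and 0 were higher without overlap. Of all tested genes, 11.2% were lower without overlap. There DUT, which makes the dUMP that TYMS uses, had 55.4, 61.4 and 60.3 TPM in shCLIC1 and 67.8, 68.6 and 66.3 TPM in shNC, apart in all libraries but not past the threshold (log2 fold change −0.19, limma adjusted p = 0.142).

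Genes of S phase were read beside TYMS, whose RNA rises as cells enter DNA synthesis. Of 14 such genes 0 were called (6 unadjusted), 8 were lower in shCLIC1 without overlap and 1, E2F1, was higher without overlap, with a median log2 fold change of −0.09. Over all tested genes, 15.6% had an unadjusted p under 0.05 and 11.2% were lower without overlap. MCM5, part of the replicative helicase, had 57.4, 53.7 and 56.6 TPM in shCLIC1 and 62.9, 66.2 and 64.9 TPM in shNC (log2 fold change −0.21, limma adjusted p = 0.0967). PCNA, the sliding clamp, had 354 to 366 TPM in shCLIC1 and 372 to 383 TPM in shNC. The part of these genes in the TYMS result was not tested.

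Factors known to act on the pathway, with some of their other targets, had 0 of 9 genes called (6 unadjusted) and a median of −0.16. ATF4 RNA had 395, 385 and 405 TPM in shCLIC1 and 443, 446 and 433 TPM in shNC, lower in all 3 knockdown libraries (log2 fold change −0.16, SE 0.0319, limma adjusted p = 0.0667), and it passed with quantile normalization (adjusted p = 0.0271). Its targets ASNS, TRIB3 and CHAC1 were at −0.26, −0.21 and −0.38 and did not pass (limma adjusted p from 0.189 to 0.229), while DDIT3 was at 0.01 and SESN2 at 0.09. ATF5, a related stress factor, was at 20.5 ± 1.31 TPM in shCLIC1 and 17.1 ± 0.796 TPM in shNC, with a log2 fold change of 0.25 (limma adjusted p = 0.162). MYC had 115, 106 and 107 TPM in shCLIC1 and 123, 124 and 125 TPM in shNC (log2 fold change −0.18, limma adjusted p = 0.108). By the KEGG annotation in the authors' table, the pathway of one-carbon pool by folate had 2 of 20 tested genes lower, both of them members, and 0 of the other 14 were called (3 unadjusted), at a median of 0.07. The pathway of glycine, serine and threonine metabolism had 0 of 24 called (9 unadjusted), and 0 of the 19 other than the members (6 unadjusted). Over all tested genes, 15.6% had an unadjusted p under 0.05.

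**Figure D4:**
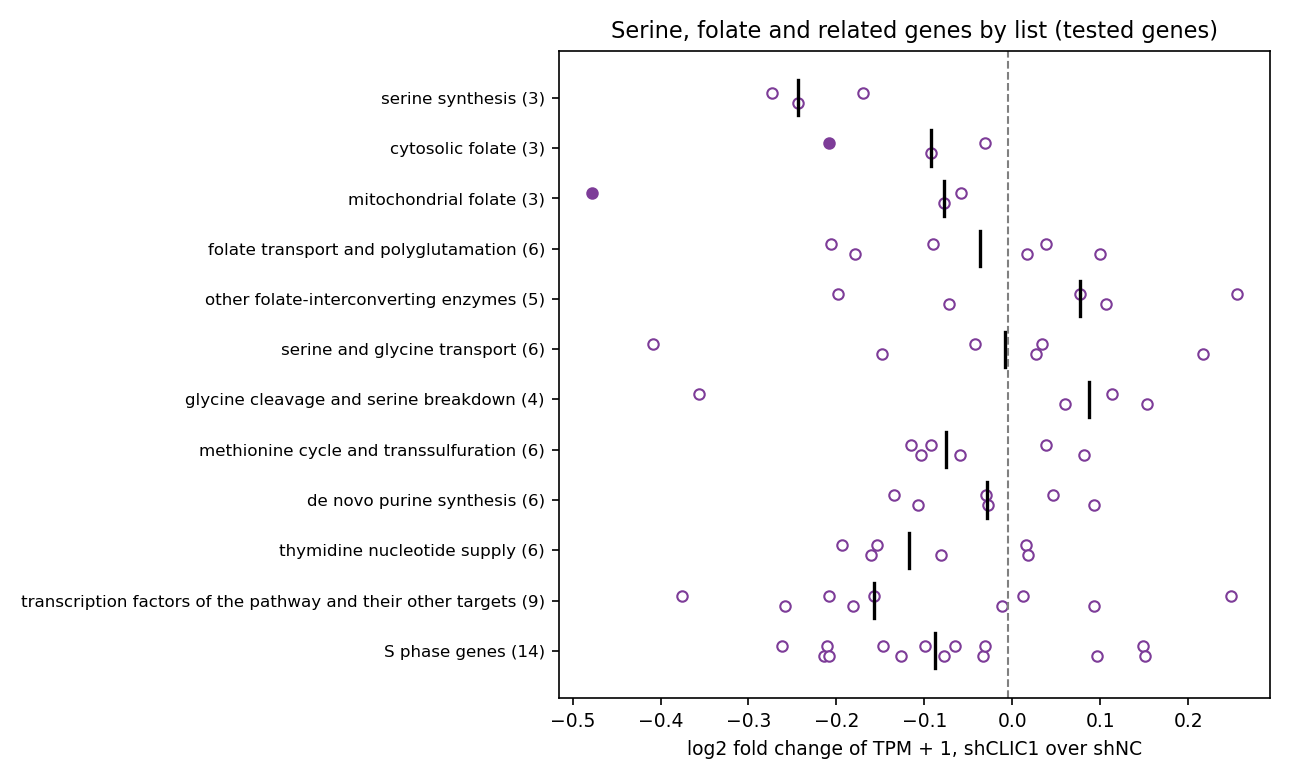
Log2 fold change of TPM + 1, shCLIC1 over shNC (horizontal axis), of every tested gene in the 9 enzymes' groups and the related lists (rows, number of tested genes in brackets). Filled dots passed an adjusted p of 0.05, black bars are list medians and the dashed line is the median of all tested genes. MTHFD2 and TYMS are the filled dots, and the list medians run from −0.24 to 0.09.

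The genes whose profile lay nearest to that of MTHFD2 over the 6 libraries were sought among 5584 genes with a mean of at least 20 TPM, by Euclidean distance of log2(TPM + 1) relative to the control mean. They were CTDSPL, MT1E, CNOT8, IFRD2 and RPL23, at distances of 0.0877 to 0.119. CTDSPL, a small phosphatase, had 30.8, 27.6 and 29.1 TPM in shCLIC1 and 43.4, 41.4 and 39.6 TPM in shNC. RPL23, a ribosomal protein at a far higher level, had 1179, 1178 and 1195 TPM in shCLIC1 and 1643, 1653 and 1636 TPM in shNC. The log2 fold changes of the 5 genes ran from −0.51 to −0.46; this closeness to MTHFD2 follows from how they were chosen and is a description only. CTDSPL, CNOT8 and IFRD2 carried GTGCTGA in a 3′ UTR, and MT1E and RPL23 carried neither GTGCTGA nor TGCTGA. All 5 were called lower, and 50.5% of the searched genes called lower carried GTGCTGA. These matches are therefore not independent evidence.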

How the data were processed

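RNA from 3 shCLIC1 and 3 shNC samples was measured. The tools named by the submitters' processing notes are fastp, HISAT, RSEM and edgeR, with GRCh38 as the build; the sources used here state neither versions, roles nor annotation. The authors deposited TPM for 60831 genes with 2 decimals, with gene length in bases (other), each library summing to 999988 to 999992. Each column was assigned through the NC or S in its name and the replicate number, and 2 columns of the authors' group means were not used. An empty line of the table was not analysed here. No depth can be recovered from TPM, so no count test was run.

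Genes with a mean of at least 1 TPM (14135) were tested on log2(TPM + 1) with limma 3.58.1 in R 4.3.3, with a mean-variance trend, two-sided, and Benjamini-Hochberg adjustment over all tested genes at 0.05. The pseudocount of 1 understates changes of low genes. The fit was tested on simulated data with known changes. The members, lists and tests were chosen with earlier results of these data known. Named genes were the 9 members, CLIC1, the called genes of each list or else the one with the smallest p, and the 5 nearest to MTHFD2; other genes named were chosen after their values were seen, and 1 gene that this rule names is not reported here. Coordinates came from GENCODE release 29 on GRCh38. Alternatives covered the pseudocount, filter, variance model, scaling, a replicate block and leaving out each library.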

Additional observations from a re-analysis of the deposited data

How the results depend on the processing

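All 9 log2 fold changes kept their negative sign in 16 of 17 alternatives, every scaling among them; the exception was MTHFD1L without shNC replicate 3, at 0.0016, in a range of −0.12 to 0.0016 over the libraries left out. The number of enzymes called, 2 at the chosen settings, was 1 with no level filter, with median centring, with trimmed-mean rescaling and with the replicate block, 0 without the mean-variance trend (3 at an unadjusted p under 0.05), and 0 to 2 when 1 library was left out. It was 0 without shCLIC1 replicate 2 and without shNC replicate 3 (3 and 4 unadjusted). PSAT1 made it 3 with a filter at 5 TPM or with quantile normalization. Over all genes, 246 calls became 61 with no filter, 0 without the trend (2040 at an unadjusted p under 0.05), 41 with the replicate block and 34 to 242 when 1 library was left out. The causes were not tested.

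Same-numbered samples of the groups share only a number: their deviations from the group means correlated at 0.04, −0.05 and −0.01, so the replicate block was not taken as a pairing. Under the block MTHFD2 passed (adjusted p = 0.0410) and TYMS did not (0.0970).

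The difference in mitochondrial share was −0.73 percentage points, −2.81 with TYMS left out, and −0.99 to −0.46 when 1 library was left out. With mean log2 levels of the arms in place of the share, the difference was −0.094. Leaving out 1 library gave −0.043 to 0.072 for SHMT2/SHMT1 and −0.069 to 0.017 for MTHFD1L/MTHFD1, with sign changes, and −0.49 to −0.42 for MTHFD2/MTHFD1. Depth is unknown, so the share of counting error in the spread is unknown too, and 3 against 3 libraries allow no exact p under 0.1.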

Other observations

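Some genes around the 9 were below the filter. GLDC, the decarboxylase of the glycine cleavage system, was at 0.20, 0.19 and 0.41 TPM in shCLIC1 and listed at 0 in all 3 shNC libraries. CBS, the entry enzyme of transsulfuration, was listed at 0 in all 6 libraries. CTH, the next enzyme, was at 4.92 to 5.85 TPM in shCLIC1 and 5.29 to 7.07 TPM in shNC. Whether reads of CBS were assigned to a similar gene was not examined, so its value of 0 does not show that CBS is absent. FOLR1, a folate receptor, was at 0.51 to 1.45 TPM in shCLIC1 and 0.22 to 0.54 TPM in shNC, under the filter as a mean.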
